A study of Mus musculus with 24 samples.

Results

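The genes described here encode 9 acute phase proteins, the plasma proteins whose synthesis rises during infection or injury. They are Lcn2, Saa1, Saa2, Saa3, Orm1, Orm2, Hp, Hpx and Apcs, 9 of the 21368 genes that have a name on the array. Every probe whose accession belongs to one of these genes was taken, and each of the 9 genes had 1 such probe, printed as 1 spot. RNA of 4 tissues (liver, brain, heart, muscle) was taken from 6 male mice and put on one-colour arrays, 1 array for each mouse and tissue. Of these mice, 3 were wild type (RAP1 WT in the labels, called WT1 to WT3) and 3 carried the Rap1 I312R knock-in (RAP1 MUT in the labels, Rap1 KI/KI in the study's methods, called KI1 to KI3). The age was 5 months for WT1 and KI1 and 2 months for the remaining 4 mice. All came from 1 CRISPR/Cas9 knock-in line back-crossed to C57BL6 mice (C57BL/6N in the study's methods), and the knock-in was present in all cells. The amino acid change lies in RAP1, a protein of the telomere-capping shelterin complex, and is meant to remove its binding to TRF2 and telomeres.

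In the acute phase response, cytokines such as IL-6, IL-1 and TNF reach hepatocytes and act there through the transcription factors STAT3, C/EBP and NF-kappaB. Hepatocytes then secrete serum amyloid A (Saa1 and Saa2), serum amyloid P (Apcs), the alpha-1-acid glycoproteins (Orm1 and Orm2), haptoglobin (Hp), which binds free hemoglobin, and hemopexin (Hpx), which binds free heme. Lcn2 encodes lipocalin 2, which withholds iron from bacteria by binding their siderophores, and Saa3 is the serum amyloid A gene best known from cells outside the liver, such as macrophages and adipocytes.

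The genes lie on 5 chromosomes of the GRCm38.p6 assembly. Saa1 (NM_009117, chr7:46740497-46743181), Saa2 (NM_011314, chr7:46751833-46754313) and Saa3 (NM_011315, chr7:46711998-46719615) are neighbors on chromosome 7, which also carries Hpx (NM_017371, chr7:105591611-105600116). Orm1 (NM_008768, chr4:63344556-63348163) and Orm2 (NM_011016, chr4:63362449-63365877) are neighbors on chromosome 4. Lcn2 (NM_008491) lies at chr2:32384637-32387739, Hp (NM_017370) at chr8:109575128-109579172 and Apcs (NM_011318) at chr1:172893961-172895054. The probe sequences were not used here, so transcripts of Saa1 and Saa2, or of Orm1 and Orm2, may bind each other's probes.

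RefSeq promoters were held for 7 of the 9 genes, with none used here for Hp and Orm1. The 250 bases before the start that this promoter table uses are printed 5′ to 3′ for the 3 Saa genes and Lcn2, because Saa1 and Saa2 moved together from liver to liver while Saa3 did not, and because Lcn2 had the widest range between livers. For Saa1 and Saa3 that start lies inside the gene's annotated span, so the Saa1 stretch overlaps the span and the Saa3 stretch lies wholly within it. Capitals mark matches, on either strand, to a C/EBP motif (TTGCNNAA) or to the NF-kappaB consensus.
Saa1, chr7:46742981-46743230, minus strand: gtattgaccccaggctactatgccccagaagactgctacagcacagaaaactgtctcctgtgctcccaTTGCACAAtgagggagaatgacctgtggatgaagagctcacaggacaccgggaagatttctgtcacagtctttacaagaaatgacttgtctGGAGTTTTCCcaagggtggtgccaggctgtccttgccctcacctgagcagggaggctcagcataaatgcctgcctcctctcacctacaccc
Saa2, chr7:46751583-46751832, plus strand: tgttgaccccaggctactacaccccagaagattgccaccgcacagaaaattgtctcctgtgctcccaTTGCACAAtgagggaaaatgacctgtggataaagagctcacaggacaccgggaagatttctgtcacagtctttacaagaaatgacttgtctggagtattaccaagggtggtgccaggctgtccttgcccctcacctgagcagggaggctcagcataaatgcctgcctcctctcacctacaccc
Saa3, chr7:46715677-46715926, minus strand: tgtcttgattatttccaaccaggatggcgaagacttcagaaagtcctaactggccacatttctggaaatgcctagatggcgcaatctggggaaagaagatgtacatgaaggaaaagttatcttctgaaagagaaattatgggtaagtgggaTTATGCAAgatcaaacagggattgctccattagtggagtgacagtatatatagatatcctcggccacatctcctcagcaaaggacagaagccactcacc
Lcn2, chr2:32387740-32387989, minus strand: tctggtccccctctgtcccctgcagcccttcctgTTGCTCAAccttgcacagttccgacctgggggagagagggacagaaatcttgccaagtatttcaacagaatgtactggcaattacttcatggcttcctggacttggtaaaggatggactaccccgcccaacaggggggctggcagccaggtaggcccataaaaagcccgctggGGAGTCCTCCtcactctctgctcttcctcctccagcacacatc

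The Saa1 and Saa2 stretches were 94.8% identical when aligned, with 238 identical positions of 251, whereas Saa2 and Saa3 shared 50.6%, close to the 53.9% of the unrelated pair Lcn2 and Saa1. A C/EBP match was present in 6 of the 7 promoters and in 9.56% of the 32851 promoters of the same length. The 6 were those of Lcn2, Saa1, Saa2, Saa3, Orm2 and Hpx, and the match in Saa1 and Saa2 is the same octamer. The NF-kappaB consensus was matched in Lcn2, 43 to 34 bases before the start, and in Saa1, 91 to 82 bases before it, against 9.55% of all promoters. A STAT motif (TTCNNNGAA) was matched only in Apcs of the 7 promoters, against 7.02% of all promoters. No match overlapped another. These matches describe the letters in this window.

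Levels are given as the log2 of the processed signal relative to the 75th percentile of the same array, and a level of 0 therefore equals that percentile, with 1 unit for each doubling. Levels of different probes cannot be set against each other. Genotypes were compared in a tissue only for probes with a signal well above background on 3 or more of its 6 arrays. The 75th percentile of the intensities ran from 573.1 to 1389 in the liver, 873.7 to 1366 in the brain, 569.4 to 1107 in the heart and 470.7 to 529.2 in the muscle, and none of the 9 probes was saturated on any of the 24 arrays. The number of arrays limits the precision, and 3 mice against 3 cannot give an exact permutation p below 0.1. Terf2ip, the gene that encodes RAP1, differed between Rap1 KI/KI and WT mice by -0.41 (heart) to 0.12 (liver) on the log2 scale with no adjusted p below 0.66 (limma). A point mutation need not change the RNA level, so these values do not check the genotype labels.

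The tissue labels were compared with marker genes. The log2 of the summed hepatocyte marker levels was 11.73 to 12.59 on the liver arrays and at most 7.77 elsewhere. It was 11.51 to 12.35 for cardiomyocyte markers in the heart, and 12.28 to 12.63 for skeletal muscle fibre markers in the muscle. Neuron and glia markers summed to 8.62 to 8.79 in the brain but to 8.07 to 8.74 in the liver, where Aldh1l1, also a liver enzyme, was the brightest of them. Syt1, a synaptic vesicle protein, reached 6.33 to 7.02 in the brain against 1.13 to 2.30 in the liver. A few arrays stood apart in these lists. The hearts of KI1 and KI3 were high in adipocyte markers, as were the muscles of KI2 and WT1. The muscle of KI1 was high in neutrophil markers, and the muscle of KI3 carried brain transcripts such as Gfap, at 1.94 there and at most -2.60 in the other muscles. The brain of WT1 carried liver transcripts such as Alb, at 0.57 there and at most -3.86 in the other brains. The values are repeated beside the genes that moved with them. In whole tissue, a change in the number of cells of a type and a change in RNA per cell cannot be told apart.

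All 9 genes were higher in the liver than in each of the other 3 tissues. Beside 9 of 9 against the brain, 45.6% of all probes tested were called higher in the liver, and the shares were 34.4% against the heart and 34.9% against the muscle. The largest adjusted p among the 9 genes was 7.1e-06 against the brain, 0.0012 against the heart and 0.00051 against the muscle (limma over all 24 arrays). The liver level was steady for Hpx (8.78 ± 0.29, SD, n = 6), Hp and the Orm genes, and most variable for Lcn2 (2.97 ± 1.85, SD, n = 6).

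**Figure D1:**
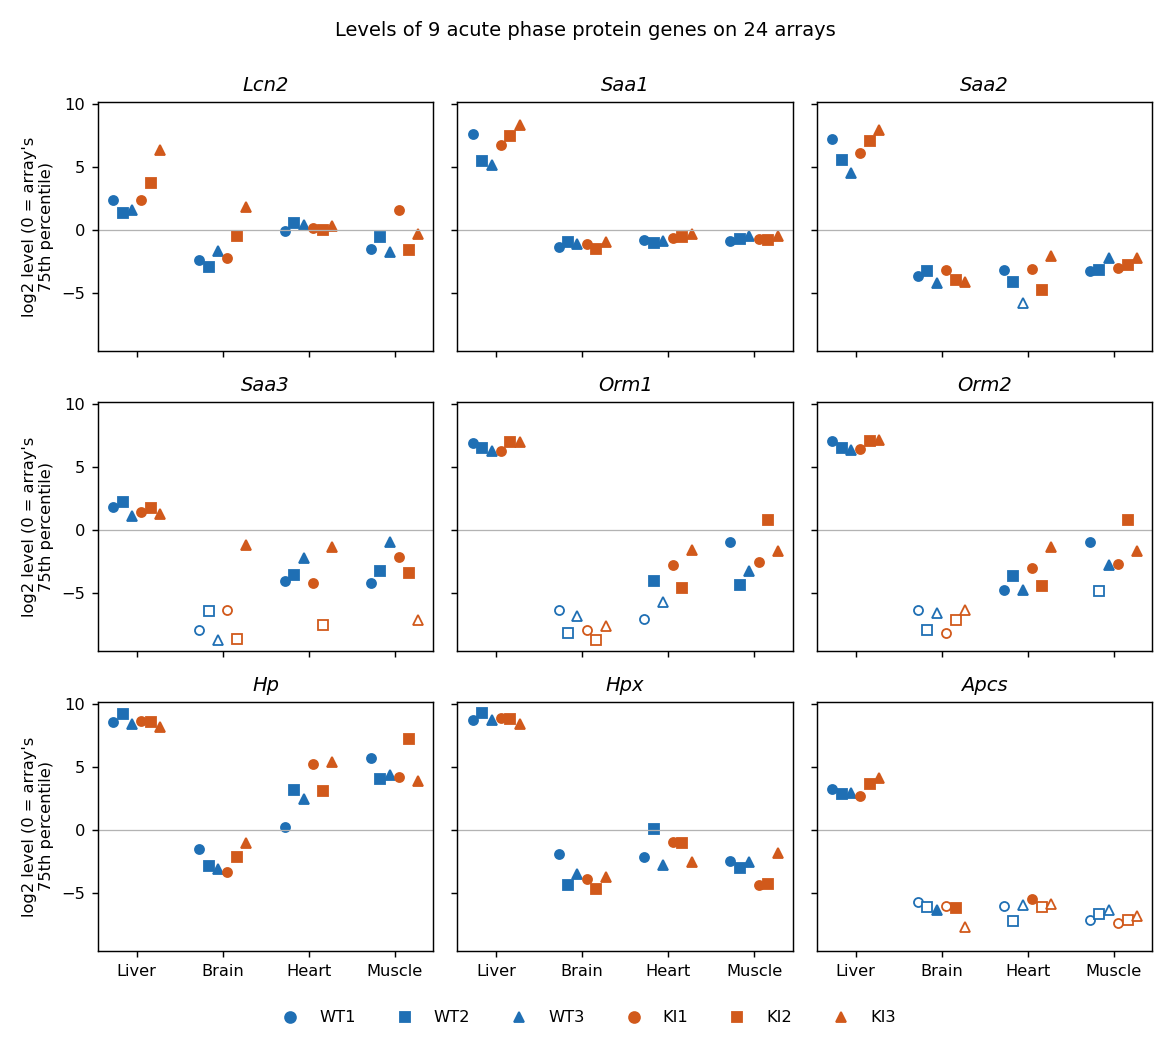
Log2 level of each of the 9 genes (y axis, 0 is the array's 75th percentile) on all 24 arrays, by tissue (x axis). Each point is 1 mouse, WT in blue and Rap1 KI/KI in orange, and open points were not well above background. The 6 liver points lie above those of the other tissues for 8 of the 9 genes, and Lcn2 in liver overlaps its levels in brain and muscle.

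Hp and Hpx, the carriers of hemoglobin and heme, had the same liver bias with different second tissues. Hpx was 8.36 to 9.26 in the liver and fell to -2.78 to 0.05 in the heart, -4.38 to -1.87 in the muscle and -4.67 to -1.91 in the brain. Heart exceeded muscle by 1.52 ± 0.51 (log2, standard error) and brain by 2.13 ± 0.51, with adjusted p of 0.021 and 0.0011, while brain and muscle were not separated (difference -0.61 ± 0.51, adjusted p = 0.29). Hp was 8.13 to 9.22 in the liver, 3.85 to 7.20 in the muscle, 0.25 to 5.34 in the heart and -3.34 to -1.05 in the brain. Its muscle level exceeded that of the heart by 1.64 ± 0.61 (adjusted p = 0.037), and all 6 hearts and all 6 muscles lay above all 6 brains. The liver was 12.9-fold above the muscle for Hp and 3750-fold for Hpx.

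Orm1 and Orm2 were the most liver-restricted against the brain, where neither probe was well above background on any array. Against that limit the liver was at least 7750-fold higher for Orm1 and at least 8110-fold higher for Orm2. Both were measured in the muscle, where Orm1 ran from -4.39 to 0.79, and lower in the heart, where it ran from -7.09 to -1.56. The adjusted p for heart against muscle was 0.0086 for Orm1 and 0.048 for Orm2. Apcs was 2.65 to 4.08 in the liver and was well above background on 2 of 6 brains, 1 of 6 hearts and none of 6 muscles. The liver was at least 378-fold above the muscle for Apcs.

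Among the Saa genes, Saa1 lay between 5.19 and 8.34 in the liver. In the other 3 tissues it kept to a narrow band, from -1.53 in a brain to -0.31 in a heart, and none of the 3 differences among those tissues passed the test (adjusted p from 0.18 to 0.99). For Saa2, at 4.51 to 7.94 in the liver, none of these differences passed either (adjusted p from 0.12 to 0.88). Its band outside the liver was wider, from -5.78 to -2.04, both in hearts and the lower one not well above background. The liver excess of Saa3 was 5.12 ± 1.13 over muscle and 5.44 ± 1.13 over heart. It was well above background on 5 of 6 hearts and 5 of 6 muscles but on only 1 of 6 brains, and brain was below heart (adjusted p = 0.04) and below muscle (adjusted p = 0.022).

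Lcn2 had the smallest difference between liver and the other tissues, 2.72 ± 0.66 over heart, 3.65 ± 0.66 over muscle and 4.28 ± 0.66 over brain. Brain was below heart by 1.56 ± 0.66 (adjusted p = 0.043), and muscle did not differ from either beyond the spread (adjusted p = 0.4 against brain and 0.27 against heart). Over all 9 genes, brain was below heart for 6, beside 39.9% of all probes tested, and below muscle for 4, beside 41.4%. Heart was above muscle for Hpx, beside 21% of probes, and below it for Orm1, Orm2 and Hp, beside 22.4%. Apcs passed the same test (adjusted p = 0.035), but with 1 of 12 arrays well above background its direction was not measured. These 5 heart-muscle calls are not firm, since between 0 and 5 of them were made when 1 mouse was left out, the 0 without KI2.

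The comparison of Rap1 KI/KI with WT mice asked whether the levels of these genes differed by genotype in each tissue. The labels name no infection, injury or other stimulus. In the liver, the genes that differed most were Lcn2 and the pair Saa1 and Saa2, and the difference of Lcn2 was carried by KI2 and KI3. Lcn2 was 2.41, 1.37 and 1.57 in WT1, WT2 and WT3 and 2.38, 3.72 and 6.35 in KI1, KI2 and KI3. KI2 and KI3 lay above every WT liver and KI1 among them. The difference was 2.37 ± 0.92 on the log2 scale (standard error), a 5.16-fold ratio of means, with an unadjusted p of 0.036, an adjusted p of 1 (limma) and an exact permutation p of 0.2. Leaving out KI3 reduced it to 1.27, and leaving out KI1 raised it to 3.25.

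Saa1 in the liver was 7.60, 5.45 and 5.19 in WT1 to WT3 and 6.73, 7.44 and 8.34 in KI1 to KI3. Saa2 was 7.19, 5.52 and 4.51 in WT1 to WT3 and 6.09, 7.04 and 7.94 in KI1 to KI3. For both genes the order from the top was KI3, WT1 and KI2, with WT3 lowest, so the genotypes overlapped through WT1, the older WT mouse. The differences were 1.42 ± 0.69 for Saa1 and 1.28 ± 0.73 for Saa2, each with an adjusted p of 1 (limma). Without WT1 they became 2.18 and 2.01, and without WT3 they became 0.97 and 0.67. With age as a covariate the difference of Saa1 stayed at 1.42 ± 0.70, because each genotype had 1 older mouse.

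**Figure D2:**
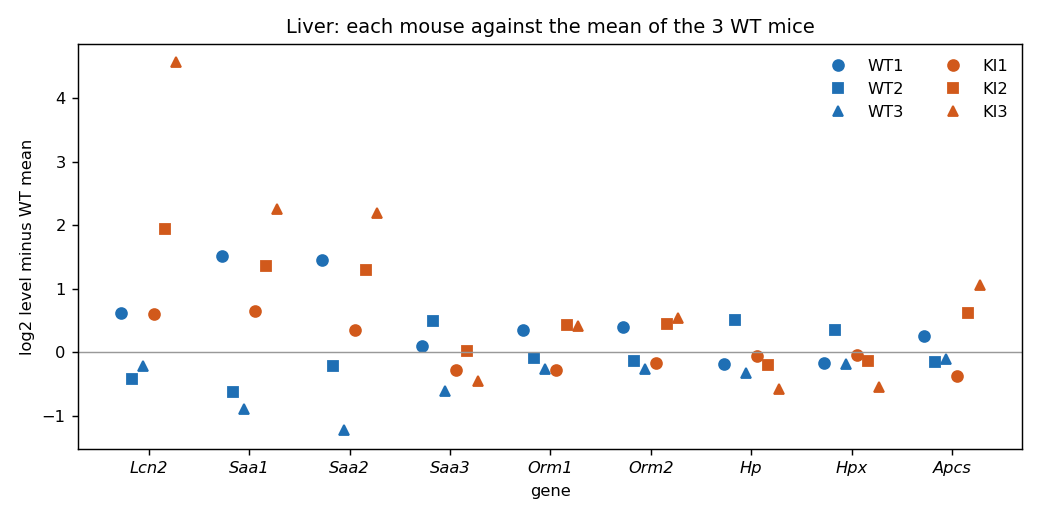
Log2 level of each gene in the liver of each mouse (y axis) minus the mean of the 3 WT mice, WT in blue and Rap1 KI/KI in orange. KI3 is highest for Lcn2, Saa1, Saa2, Orm2 and Apcs and lowest for Hp and Hpx.

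Apcs, which encodes serum amyloid P, was 3.27, 2.87 and 2.91 in the WT livers and 2.65, 3.64 and 4.08 in the Rap1 KI/KI livers. Again KI2 and KI3 lay above the WT mice and KI1 below them (difference 0.45 ± 0.37, adjusted p = 1, limma). Orm1 ran from 6.28 to 6.89 in WT livers and from 6.27 to 6.98 in Rap1 KI/KI livers, and Orm2 from 6.34 to 7.01 and from 6.44 to 7.14. Their differences, 0.19 ± 0.28 and 0.27 ± 0.29, were within their standard errors. Saa3 showed no such shift, at 1.83, 2.22 and 1.12 in WT and 1.45, 1.74 and 1.27 in Rap1 KI/KI livers.

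Hp and Hpx ran the other way in KI3. Hp was 8.53, 9.22 and 8.39 in the WT and 8.66, 8.52 and 8.13 in the Rap1 KI/KI livers, and Hpx was 8.73, 9.26 and 8.72 and then 8.86, 8.77 and 8.36. Both were highest in WT2 and lowest in KI3. The abundant hepatocyte transcript Alb moved the same way, at 9.85 in WT2 and 8.74 in KI3, and the WT2 and KI3 arrays had the lowest and the highest 75th percentile of the livers (573.1 and 1389). With quantile normalization the Hpx difference of -0.24 ± 0.25 became 0.05 ± 0.14. The part of the scaling in these values was not tested further.

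In all, 6 of 9 genes were higher and 3 lower in Rap1 KI/KI livers, with a median difference of 0.27 against -0.01 over all probes tested. No gene passed the adjusted threshold, as was true of all probes (0%, limma), and 1 of 9 had an unadjusted p under 0.05, beside 2.13% of all probes. None of the 9 had genotypes that did not overlap, beside 5.84% of all probes. KI3 had the highest level of the 6 livers for 5 of 9 genes, beside 14.9% of all probes.

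**Figure D3:**
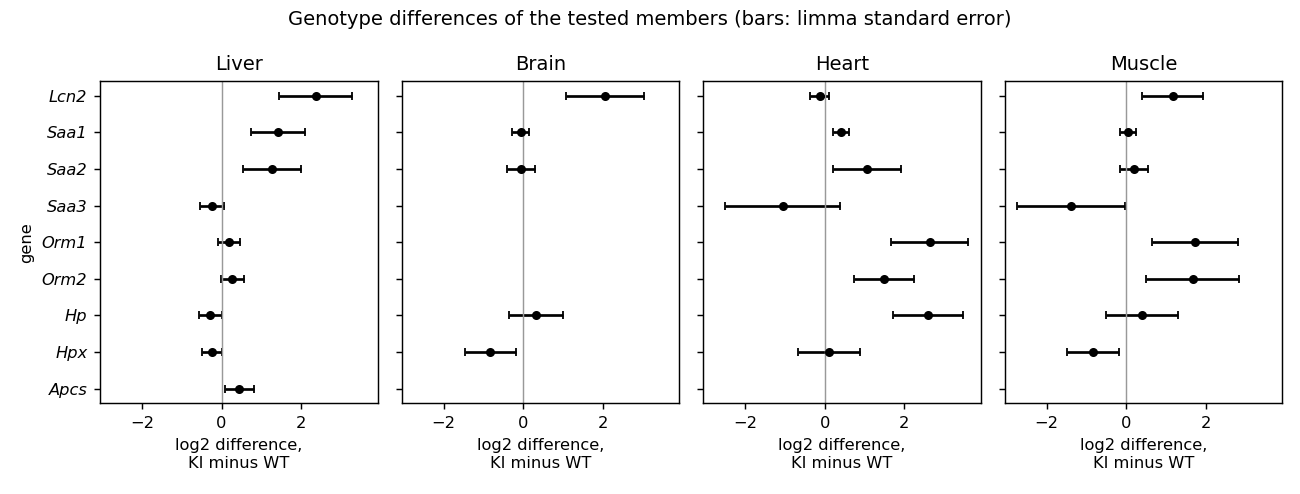
Rap1 KI/KI mean minus WT mean on the log2 scale (x axis) for each tested gene (y axis) in each tissue, with bars for the limma standard error (n = 3 mice per genotype). Lcn2 lies to the right in liver and brain, and Hp and Orm1 lie to the right in heart. No difference passed the adjusted threshold.

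Some pairs of genes varied alike across the 6 livers, although no adjusted p was below 0.05. Over 36 pairs of genes, Pearson's r was 0.98 for Saa1 with Saa2 (permutation p = 0.0014, adjusted 0.05, Spearman's rho 1 with p = 0.0028, adjusted 0.1). It was also 0.98 for Hp with Hpx (exact permutation p = 0.0028, adjusted 0.05, rho 0.94 with p = 0.017, adjusted 0.15) and for Orm1 with Orm2 (p = 0.015, adjusted 0.079, rho 0.89 with p = 0.033, adjusted 0.15). Without the 2 mice farthest from the median these became 1.00, 0.88 and 0.98. The first and the last pair are near-identical neighboring genes whose probes may share transcripts, and Hp and Hpx share their highest and lowest mouse with Alb and, in reverse, with the 75th percentile of the arrays. Lcn2 followed Saa1 with r = 0.83 (exact permutation p = 0.021, adjusted 0.083, rho 0.89 with p = 0.033, adjusted 0.15), and 0.93 without KI2 and KI3. Lcn2 with Apcs, r = 0.90 (permutation p = 0.012, adjusted 0.079, rho 0.83 with p = 0.058, adjusted 0.19), fell to 0.21 without them and so rested on those mice.

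The rest of the acute phase program in the liver was described by lists of related genes. Of 24 other positive acute phase genes tested, none passed the adjusted threshold, none had an unadjusted p under 0.05 in the upward direction and 1 did downward (limma), and their median difference was -0.02. The 1 was Hamp, the iron regulatory hormone hepcidin, at 8.10 to 8.58 in WT and 7.75, 6.32 and 7.48 in Rap1 KI/KI livers. Its groups did not overlap (difference -1.12 ± 0.39, unadjusted p = 0.023, adjusted p = 1, limma). Lbp, which carries endotoxin, was 3.69 to 4.16 in WT and 3.73, 4.60 and 4.83 in KI1 to KI3, with KI2 and KI3 again above the WT livers. Of 12 negative acute phase genes, such as the corticosteroid carrier Serpina6 (difference -0.47 ± 0.22, unadjusted p = 0.065), none passed either threshold, and their median was -0.30. KI3 had the lowest level of the 6 livers for 9 of these 12, beside 19.1% of all probes, but also for 9 of 12 hepatocyte markers and 9 of the 24 other positive genes. WT2 had the highest level for 9 of 12 in the negative list and 9 of 12 hepatocyte markers, beside 18.3% of all probes. None of 17 tested cytokine and receptor genes and none of 19 transcription factor and feedback genes had an unadjusted p under 0.05 in the liver. The closest were Il1rn, the IL-1 receptor antagonist, at -4.63 to -3.88 in WT and -4.07, -3.33 and -1.93 in KI1 to KI3 (1.14 ± 0.53), and Tnfaip3, an NF-kappaB inhibitor (0.64 ± 0.31). Of 11 tested receptors for these proteins, Fcgr2b, an inhibitory immunoglobulin receptor, was higher by 0.59 ± 0.23 (unadjusted p = 0.037, adjusted p = 1, limma). The livers of KI2 and KI3, both high in Lcn2, differed in leukocyte markers. S100a8, a neutrophil protein, was -1.91 in KI3, within the WT range of -2.06 to -0.74, and -0.49 in KI2, above it. KI2 was highest for 6 of 10 tested neutrophil markers and 9 of 11 macrophage markers, beside 8.07% of all probes, and KI3 for none of either. The log2 summed neutrophil level, 5.45 to 6.65 in WT and 5.37 to 5.49 in Rap1 KI/KI livers, was nearly all from the probe of Csf3r (5.17 to 6.52 in WT). The part of these cells in the Lcn2 level of KI2 was not tested.

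In the brain, Lcn2 showed the same mouse at the top. It was -2.39, -2.95 and -1.68 in WT1 to WT3 and -2.19, -0.49 and 1.83 in KI1 to KI3, so that KI3 and KI2 lay above the WT brains and KI1 among them. The difference was 2.06 ± 0.99 (unadjusted p = 0.081, adjusted p = 1, limma, exact permutation p = 0.2), and it was 1.00 without KI3. Saa3 was well above background in the brain of KI3 alone, at -1.23, and at -8.73 to -6.31 in the other 5, so it was not tested. Hp was highest in KI3 at -1.05 and second in WT1 at -1.53, with the other 4 from -3.34 to -2.15.

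Saa1 and Saa2 did not share this pattern in the brain. Saa1 was -1.31 to -0.99 in WT and -1.53 to -0.94 in Rap1 KI/KI brains, and Saa2 was lower in KI3 (-4.10) than in 4 other mice. Hpx was highest in WT1, at -1.91 against -4.67 to -3.54 in the others. That array also carried the liver transcripts Alb (0.57 against -6.04 to -3.86) and Fgb (-2.09 against -8.57 to -5.27), and their part in the Hpx and Hp levels of WT1 was not tested. Of the 5 genes tested in the brain, 2 had a higher and 3 a lower mean in Rap1 KI/KI brains, with a median difference of -0.06 against -0.05 over all probes. None passed the adjusted threshold (0% of all probes, limma), none had an unadjusted p under 0.05 (2.62% of all probes), and none had genotypes that did not overlap (7.73% of all probes).

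The KI3 brain was also high in other genes of the response. It had the highest level of the 6 brains for 10 of 16 tested other positive acute phase genes, 9 of 14 cytokine and receptor genes, 11 of 17 transcription factor and feedback genes and 7 of 11 receptors of the acute phase proteins, beside 16.5% of all probes. C3, the central complement component, was -1.63 to -0.19 in WT, -0.33 in KI1, -0.28 in KI2 and 4.38 in KI3. The metal-binding Mt2 was 6.64 to 6.72 in WT and 6.92, 6.98 and 7.42 in KI1 to KI3, and the copper carrier Cp was -0.47 to 0.13, then 0.15, 0.26 and 1.60. Most of the named signaling genes were shifted in the same mouse. Il1r1, the IL-1 receptor, was 0.30 in KI3 and -2.16 to -1.38 in the others, Tnfrsf1a, a TNF receptor, was 2.04 against 0.36 to 0.75, and Stat3 was 3.06 against 2.01 to 2.44. Tlr2, a receptor for bacterial lipoproteins, was 0.85 in KI3 against -2.44 to -1.85. Lif, with the smallest p of the cytokine list, had a lower mean in Rap1 KI/KI brains and was not highest in KI3. It was -5.20, -5.18 and -5.58 in WT1 to WT3 and -6.41, -6.70 and -5.23 in KI1 to KI3. The difference was -0.79 ± 0.40 (unadjusted p = 0.096, limma), with Lif well above background on 4 of 6 brains. None of these lists held a gene past the unadjusted threshold in the brain (limma). For Mt2 and Cp all 3 Rap1 KI/KI brains lay above the WT brains (unadjusted p = 0.065 and 0.099, adjusted p = 1 for both, limma). The same held for Il1r1, Tnfrsf1a, Stat3 and Tlr2, with KI1 and KI2 close to the WT range (unadjusted p from 0.089 to 0.13, limma). The genotypes did not overlap for 7.73% of all probes in the brain.

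**Figure D4:**
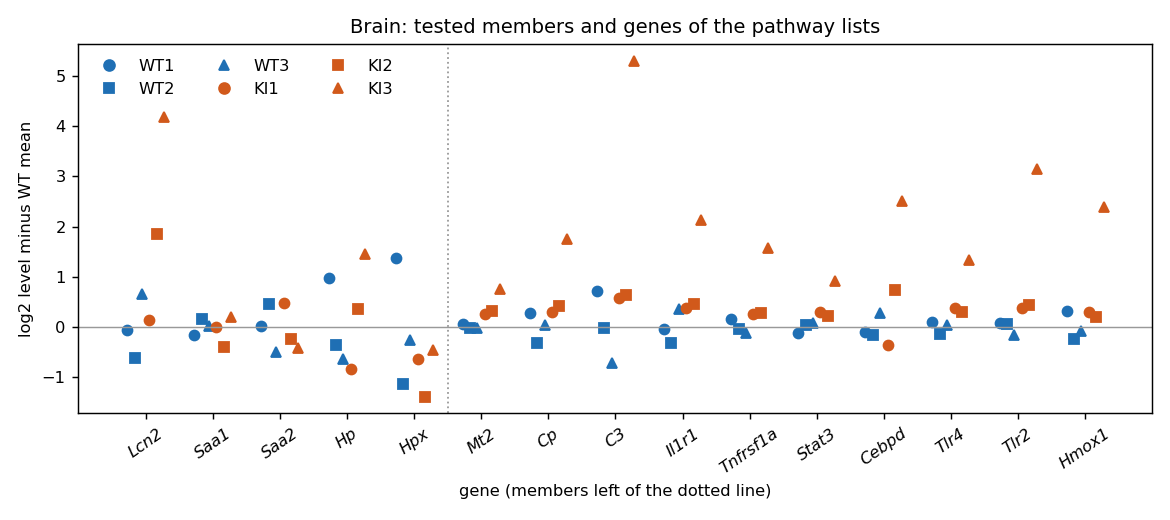
Log2 level in the brain of each mouse (y axis) minus the mean of the 3 WT mice, for the 5 tested acute phase genes (left of the dotted line) and 10 genes of the related lists (right). KI3 stands above the other 5 mice for Lcn2, Hp and all 10 genes on the right, while its Saa1 level (-0.94) is next to that of WT2 (-0.99). Lif, which had a lower mean in Rap1 KI/KI brains and was not highest in KI3, is not shown.

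Cell type markers moved in the same brain. KI3 was highest for 7 of 8 tested macrophage markers, whose log2 summed level was 5.14 to 5.53 in WT brains and 5.20, 5.48 and 6.61 in KI1 to KI3. It was highest for 0 of 13 tested neutrophil markers and lowest for 5 of them, with S100a8 at -1.75 against -2.27 to -0.18 in WT brains. It was also lowest for 6 of 6 blood markers, beside 33.9% of all probes. Of the 12 neuron and glia markers, KI3 was highest for 3 and lowest for 5. The 3 were the astrocyte genes Gfap, a filament, at 5.41 against 1.98 to 3.36 in the other brains, the water channel Aqp4, at 3.59 against 2.05 to 3.13, and Aldh1l1, at 4.42 against 4.12 to 4.41. Aqp4 was higher in all 3 Rap1 KI/KI brains (difference 1.00 ± 0.26, unadjusted p = 0.0075, adjusted p = 1, limma). Slc1a2, the astrocyte glutamate transporter, was 3.61 in KI3, within the range of the others (3.36 to 4.16). The part of these cells in the Lcn2 and Saa3 levels was not tested. The brain slides held WT1 and KI1 on one and the other 4 mice on another, so slide and age cannot be told apart there. Both genotypes were split alike over these slides, so neither term could move the Lcn2 difference, which was 2.06 ± 0.87 with either.

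In the heart, the genes that differed most were Hp and Orm1. Hp was 0.25, 3.14 and 2.47 in WT1 to WT3 and 5.21, 3.1 and 5.34 in KI1 to KI3. KI1 and KI3 lay above all WT hearts and KI2 among them. The difference was 2.60 ± 0.89, a 6.05-fold ratio of means (unadjusted p = 0.022, adjusted p = 0.65, limma, exact permutation p = 0.2). Orm1 was -7.09, -4.02 and -5.74 in WT, where only WT2 was well above background, and -2.81, -4.57 and -1.56 in Rap1 KI/KI hearts, with a difference of 2.64 ± 0.97 (unadjusted p = 0.03, adjusted p = 0.65, limma). The Orm1 probe was tested only because it was well above background on all 3 Rap1 KI/KI hearts, and the size of its difference rests on WT1 and WT3 values at background. Orm2 had a difference of 1.49 ± 0.76.

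The hearts high in Hp and Orm1 were those high in adipocyte markers. Adipoq, the adipocyte hormone adiponectin, was -4.23, 0.72 and -0.15 in WT1 to WT3 and 4.05, 0.42 and 4.86 in KI1 to KI3, and the 6 hearts had the same order for Adipoq, Hp and Orm1. The lowest places for Orm1, WT3 and WT1, were not well above background. The adipocyte markers Plin1 and Cfd also had KI3 and then KI1 highest, but each put the remaining hearts in another order. The adipocyte list had 10 of 11 markers tested, with none absent from all hearts and a median difference of 3.95. Of these, 7 had a higher level at an unadjusted p under 0.05 (limma), beside 7.51% of all probes in either direction. None passed the adjusted threshold. The log2 summed level of the list was 7.85 to 7.95 in WT hearts and 8.78, 8.15 and 9.60 in KI1 to KI3. KI3 was highest for 10 of 10 of these markers, beside 18.8% of all probes. KI2 lay within the WT range for Adipoq, Hp and Orm1, but its summed adipocyte level (8.15) lay above that of every WT heart (at most 7.95). The part of adipose tissue in these levels was not tested.

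The other genes differed less in the heart. Lcn2 ran only from -0.06 to 0.59 over all 6 hearts (difference -0.12 ± 0.24). Saa1 was the one gene whose genotypes did not overlap, at -0.76, -1.03 and -0.90 in WT and -0.65, -0.52 and -0.31 in Rap1 KI/KI hearts (0.40 ± 0.20, adjusted p = 0.65, limma, exact permutation p = 0.1, the smallest possible). This 1 of 8 stands beside 14.7% of all probes. Hpx was highest in WT2, at 0.05 against -2.78 to -0.95, and so was Alb, at 2.95 against -0.46 to 1.76. Saa3 ran from -7.54 in KI2 to -1.37 in KI3 with overlapping groups, and Apcs was not tested. Of the 8 genes tested, 6 were higher and 2 lower, with a median of 0.73 against -0.02 over all probes. None passed the adjusted threshold (0% of all probes, limma), and 2 had an unadjusted p under 0.05, Hp and Orm1, beside 7.51% of all probes. In the lists, C3 (0.56 ± 0.22) and Itih4, an inter-alpha-trypsin inhibitor chain (1.66 ± 0.69), were among the other positive genes with an unadjusted p under 0.05, as was Rbp4, the retinol carrier also made by adipocytes (2.10 ± 0.84), among the negative ones. Each had an adjusted p of 0.65 (limma).

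In the muscle, Orm1 and Orm2 had the mouse order of the adipocyte marker Adipoq, and Hp shared its highest 2 mice, KI2 and WT1, with them. Hp was 5.73, 4.03 and 4.32 in WT1 to WT3 and 4.19, 7.20 and 3.85 in KI1 to KI3, lowest in KI3, whose Adipoq was above that of KI1, WT2 and WT3. Orm1 was -0.95, -4.39 and -3.28 in WT and -2.56, 0.79 and -1.66 in Rap1 KI/KI muscles. Adipoq was 5.62, 1.99 and 3.93 in WT and 4.11, 6.56 and 4.2 in Rap1 KI/KI muscles, so that WT and Rap1 KI/KI muscles overlapped for all of these genes. KI2 was highest for 11 of 11 adipocyte markers, beside 17.5% of all probes, and their log2 summed level was 10.10, 7.62 and 9.20 in WT and 9.03, 10.66 and 9.07 in Rap1 KI/KI muscles. The differences between genotypes were 0.39 ± 0.91 for Hp, 1.73 ± 1.08 for Orm1 and 1.67 ± 1.17 for Orm2, and without KI2 that of Hp became -0.67. The part of adipose tissue was not tested.

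Lcn2 in the muscle was -1.50, -0.58 and -1.72 in WT1 to WT3 and 1.61, -1.60 and -0.30 in KI1 to KI3. KI1 was highest, unlike in liver and brain, and the difference was 1.17 ± 0.77 (adjusted p = 0.94, limma), or 0.31 without KI1. Neutrophil and blood genes moved with it. S100a8 and S100a9, which form calprotectin, differed by 3.72 ± 1.18 and 3.59 ± 1.16 (unadjusted p = 0.016 and 0.017, adjusted p = 0.94 for both, limma), with S100a8 at -3.16 to -1.20 in WT and 3.74, -1.12 and 1.08 in KI1 to KI3. Ngp, a neutrophil granule protein, was 0.81 in KI1 and -7.39 to -2.46 in the others, with the 6 muscles in the same order as for Lcn2. That order is rough, since Ngp was well above background on only 3 of the 6 muscles. S100a8 and S100a9 also had KI1 and then KI3 highest, but they placed KI2 above the WT muscles, whereas its Lcn2 lay below that of WT2 and WT1. KI1 was highest for 9 of 11 tested neutrophil markers, whose log2 summed level was 6.35 to 6.74 in WT and 7.57, 6.84 and 7.22 in KI1 to KI3, and for 6 of 6 blood markers, beside 17.3% of all probes. In the WT muscles and KI2 that neutrophil sum was nearly all from the probe of Csf3r (6.30 to 6.72 in WT and 6.79 in KI2). Of the 6 blood markers, 5 were higher in Rap1 KI/KI muscles at an unadjusted p under 0.05 (limma), beside 2.48% of all probes in either direction. None passed the adjusted threshold. Their median difference was 0.92, and their log2 summed level was 9.03 to 9.75 in WT and 10.30, 10.04 and 9.90 in KI1 to KI3. The part of neutrophils and blood in the Lcn2 level was not tested.

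**Figure D5:**
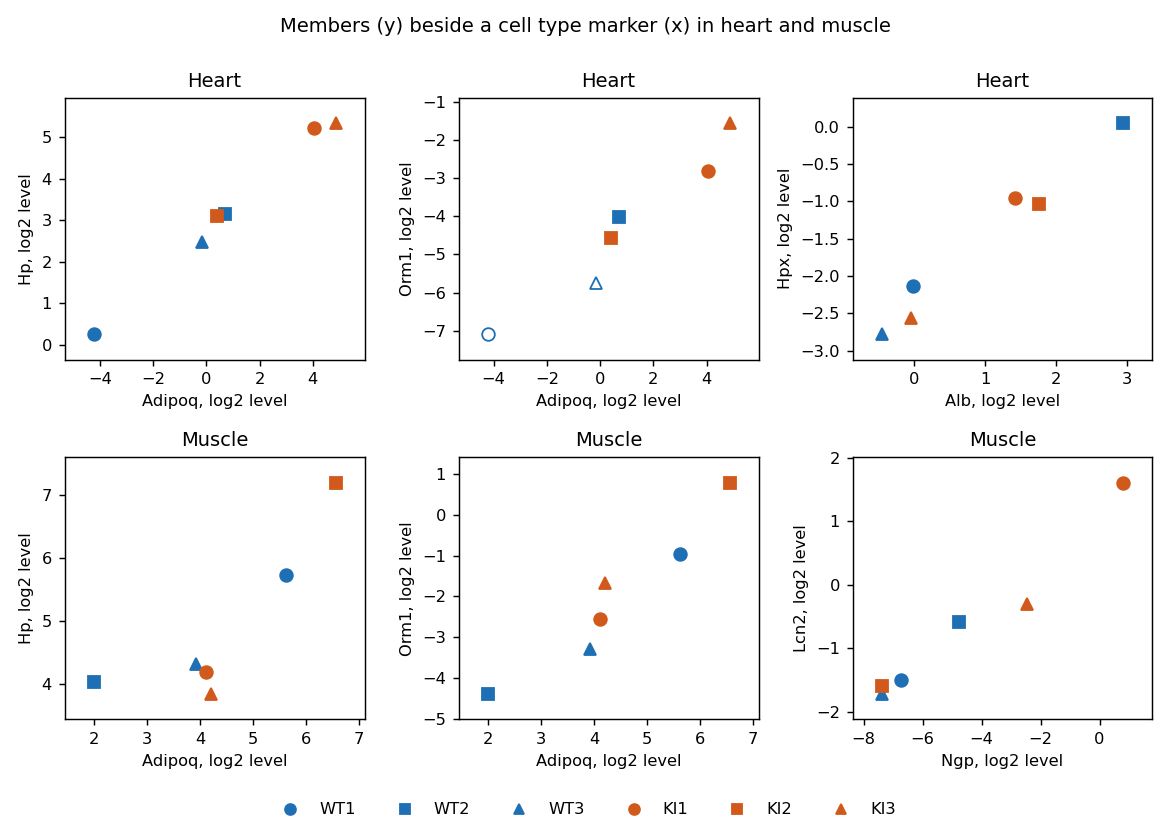
Log2 level of an acute phase gene (y axis) against that of a cell type marker (x axis) in the 6 hearts (top) and 6 muscles (bottom), WT in blue and Rap1 KI/KI in orange. Open points mark an acute phase gene not well above background, and the background of the marker is not shown. Ngp was well above background on only 3 of the 6 muscles. Hp and Orm1 rise with Adipoq in the heart and Orm1 does so in the muscle, Hpx rises with Alb in the heart, and Lcn2 rises with Ngp in the muscle.

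The remaining muscle values overlapped between genotypes. Saa3 was lowest in KI3, at -7.11 and not above background, against -4.18 to -0.98 in the other 5, and KI3 was the muscle array with brain transcripts. Hpx was -3.03 to -2.46 in WT and -4.38, -4.28 and -1.87 in Rap1 KI/KI muscles. Saa1 and Saa2 differed by 0.04 ± 0.20 and 0.20 ± 0.35. Of the 8 genes tested, 6 were higher and 2 lower, with a median of 0.30 against -0.07 over all probes. None passed the adjusted threshold (0% of all probes, limma), had an unadjusted p under 0.05 (2.48% of all probes) or had genotypes that did not overlap (6.44% of all probes).

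Whether the genotype difference depended on the tissue was tested over all 24 arrays. The adjusted p was 1 for each of the 9 genes (limma, 0% of all probes called), and the smallest unadjusted p was 0.061, for Orm1, so that 0 of 9 genes passed the unadjusted threshold, beside 2.93% of all probes. The Lcn2 differences of 2.37 in liver, 2.06 in brain and -0.12 in heart are therefore not shown to differ.

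The genes most like Lcn2 were sought over the 24 arrays after centring each gene on its mean in each tissue. Of 14022 genes ranked, the 5 closest included the imprinted noncoding RNA H19 (r = 0.76), Mns1 (0.75), the neurotrophin Ntf3 (0.74) and Zmynd12 (0.73). Within single tissues, r of these named genes was 0.8 to 0.96 in liver and brain. It was lower in muscle (0.14 to 0.63) and heart (-0.16 to 0.62). H19 in the liver was -3.09 to -2.52 in WT mice and -2.82, -2.19 and -0.98 in KI1 to KI3, and in the brain it was 0.05 in KI3 against -4.02 to -2.87 in the others. The arrays share mice and tissues, so these correlations are descriptions. Among the 9 genes themselves, r with Lcn2 on the same scale was 0.53 for Saa1, 0.22 for Saa2, -0.01 for Hp and -0.23 for Hpx, and the other genes were not ranked.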

How the data were processed

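Per the file headers, the authors scanned one-colour Agilent arrays and deposited the processed intensity of each spot, which Feature Extraction 12.0.3.1 had background-subtracted and detrended, with no normalization between arrays. The authors also deposited a series table of z-scores within each array, a score that was recomputed from the intensities to within 0.005. Spots flagged as outliers and control spots were not used, replicate spots of a probe were averaged, and log2 levels were taken relative to the 75th percentile of each array over 55681 probes, of which 28331 have a gene name through RefSeq (GRCm38.p6).

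Genotypes were compared within each tissue, and tissues and the genotype by tissue interaction over all 24 arrays, with limma 3.58.1 in R 4.3.3 (statmod 1.5.0). Tests were two-sided, with Benjamini-Hochberg adjustment over all probes tested and a threshold of 0.05. The test took probes well above background on 3 or more of the 6 arrays of a tissue, and the tissue comparisons and the interaction took those that met this in any tissue. Exact tests between genotypes permuted all splits of the 6 mice into 3 and 3. Those of gene pairs in the liver permuted all orders of the 6 mice. A fold against a group never well above background used the lowest signal measured above background there. The procedures were tested on simulated data.

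Alternatives were quantile normalization, normexp correction on median signals with an offset of 50 (mean signals were not used here), the z-scores, no filter and a stricter filter. Further ones were age as a term in the genotype tests, slide as a term in those of brain and heart, the mouse as a replicate block, 1 genotype only and each mouse left out. The livers lay on slide 1, the muscles on slide 3, the brains on slides 1 and 2 and the hearts on slides 2 and 3. Slide was not a term in the tissue comparisons, where it largely goes with tissue. A mean over the probes of a gene changes nothing, since each gene had 1 probe. Each mouse gave all 4 tissues. Its deviations from the group means in 2 tissues correlated by -0.30 to 0.37 over 28737 probes (36 pairs of tissues, 16 of them above 0.1 and a median of 0.07).

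The genes and lists were chosen with earlier results of these data known. Named genes are the 9 genes, Terf2ip, up to 3 genes with the smallest p from each pathway list, up to 3 of the brightest markers and the 5 genes most like Lcn2, of which 1 is not reported here. Adipoq, Plin1, Cfd, Ngp, Csf3r, the astrocyte genes and S100a8 in liver and brain were named after their values were seen.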

Additional observations from a re-analysis of the deposited data

How the results depend on the processing

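With the mouse as a replicate block, the paired fit of all 24 arrays called 0 genes between genotypes in each tissue and 9 of 9 between liver and each other tissue, as without the block, and it changed no other call. Under every alternative run, 0 genes were called between genotypes and for the interaction, and 9 of 9 were called higher in liver than in each other tissue. Normexp correction called 7 genes between brain and muscle in place of 4. Heart against muscle, 5 genes, fell to 3 in WT mice only, 1 in KI mice only and 0 to 5 with a mouse left out, and brain against heart gave 4 to 6.

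Some genotype differences turned sign. Quantile normalization gave 0.05 for Hpx in the liver and 0.04 for Saa2 in the brain, and normexp gave -0.04 for Hpx in the heart. Leaving out the hearts of KI1 and KI3, chosen after their adipocyte markers and levels were seen, leaves KI2 as the lone Rap1 KI/KI heart, assumed to vary like the WT hearts, and lowers genes high in KI1 and KI3 by construction. It gave -0.41 for Saa2, -0.02 for Orm2, -4.24 for Saa3, 1.15 for Hp and 1.04 for Orm1. When 1 mouse at a time was left out, the differences ran from -0.54 to 0.01 for Saa3 in the liver, and in the brain from -0.19 to 0.10 for Saa1, -0.33 to 0.17 for Saa2 and -0.23 to 0.91 for Hp. In the heart they ran from -0.31 to 0.02 for Lcn2, -2.55 to 0.53 for Saa3 and -0.47 to 0.94 for Hpx. In the muscle they ran from -0.05 to 0.14 for Saa1, -0.02 to 0.53 for Saa2, -2.43 to 0.07 for Saa3 and -0.67 to 1.00 for Hp. The cause was not tested. With each mouse left out, the Lcn2 difference stayed above 0 in liver (1.27 to 3.25) and brain (1.00 to 3.01), as did those of Hp (1.75 to 3.32) and Orm1 (1.90 to 3.43) in heart. Probes near background, such as Saa3, Orm1 and Apcs outside the liver, give only rough levels, and 3 mice per genotype limit all genotype comparisons.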

Other observations

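The related gene lists were also counted in heart and muscle, where no gene passed the adjusted threshold (limma). In the heart, 1 of 18 tested transcription factor and feedback genes had an unadjusted p under 0.05, Nfkbiz, an inducible NF-kappaB cofactor, at -4.07, -3.19 and -3.73 in WT and -2.81, -3.1 and -2.35 in Rap1 KI/KI hearts (0.91 ± 0.31, unadjusted p = 0.024, adjusted p = 0.65, limma). That share is below the 7.51% of all probes in the heart. So did 2 of 11 receptors of the acute phase proteins. They were Lrp2 (megalin), which takes up lipocalin 2, at -3.46 to -1.43 in WT and -1.23, -1.18 and 0.31 in Rap1 KI/KI hearts, and Cd163, the macrophage receptor for haptoglobin bound to hemoglobin, at -5.13 to -4.70 and -4.40 to -4.34. Among 12 negative acute phase genes, Igf1 was higher by 0.87 ± 0.29 beside Rbp4, and none of 15 cytokine and receptor genes passed that threshold. In the muscle, where 2.48% of all probes did, 1 of 12 cytokine and receptor genes did, Il1b, at -6.46 to -4.58 in WT and -3.17, -4.40 and -4.61 in KI1 to KI3 (1.5 ± 0.56, adjusted p = 0.94, limma), so that the muscle of KI1, high in neutrophil genes and Lcn2, was also highest in Il1b. None of 18 transcription factor and feedback genes, 9 receptors and 11 negative acute phase genes tested in the muscle had an unadjusted p under 0.05.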
